A study of Mus musculus with 16 samples.

Results

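Calprotectin is the complex of S100A8 and S100A9, 2 small calcium-binding proteins that fill the cytoplasm of neutrophils, and its mRNAs were examined here together with those of genes used to recognize circulating neutrophils. The 8 mRNAs are S100a8, S100a9, Slfn4, Cxcr2, Retnlg, Wfdc21, Cd177 and Ly6g, out of the 21878 mRNAs in the deposited tables. They were selected by symbol with their EAE and PBS values already known, so their differences between the groups are given as a description and are not tested. All 8 passed the filter on low counts, a total of at least 16 over the 16 libraries, and were among the 17885 mRNAs fitted.

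Female wild-type C57BL/6 mice, 8 weeks old, were divided into an EAE group and a PBS group of 8 each, and RNA was sequenced from 1 library per mouse. Experimental autoimmune encephalomyelitis (EAE) is a model of multiple sclerosis in which an immune response to myelin is raised by injection. The EAE mice received 200 μg of the myelin oligodendrocyte glycoprotein peptide 35–55 (MOG) with complete Freund's adjuvant under the skin, per the labels, and 200 ng of pertussis toxin into the abdomen on days 0, 2 and 7. The methods give another amount of peptide, and the treatment field of the labels gives a last residue of 55 to 62 over the 8 EAE mice. The PBS mice received injections of PBS, and whether these held adjuvant or pertussis toxin is not given in the sources used here. Adjuvant and toxin therefore cannot be told apart from the peptide in this comparison. Brains were taken on day 14 at clinical scores of 3 to 4, and cells were enriched on Percoll and sorted as CD11b+/CD45int, the gate used for microglia. Neutrophils also carry CD11b, and they are usually found in the CD45 high part of such a plot. Libraries are named by group and number, such as EAE 1 and PBS 1.

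The libraries held 24587443 to 30244215 counts (EAE) and 26031889 to 34184576 counts (PBS). Some libraries were more alike than others. Pairs of the same group within EAE 6, EAE 7, EAE 8, PBS 5, PBS 7 and PBS 8 had a median squared difference per mRNA of 3.09 to 4.15 times that of counting noise, against 6.30 to 27.4 times for all other pairs of the same group. The labels name no batch, so values are given both over all libraries and within such sets.

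Neutrophils are made in the bone marrow, where granule proteins such as myeloperoxidase are transcribed early and the surface receptors of circulating cells late. They reach inflamed tissue along gradients of CXC chemokines that CXCR2 senses. Outside the cell, calprotectin is known as an alarm signal that acts on TLR4 and the receptor AGER. Ly6g encodes the antigen by which mouse neutrophils are most often sorted, and Cd177 encodes a surface glycoprotein that pairs with the integrin of Itgam and Itgb2 and binds PECAM1. Retnlg encodes a resistin-like secreted protein, Wfdc21 a secreted protein with a WAP domain and Slfn4 a Schlafen family protein of myeloid cells. In EAE, neutrophils are among the leukocytes that enter the central nervous system.

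The 8 genes lie on 6 chromosomes of GRCm38. S100a8 (chr3:90669071-90670034, plus strand) and S100a9 (chr3:90692630-90695721, minus strand) are neighbours, with 22.6 kb between them. Slfn4 (chr11:83175172-83190216) and Wfdc21 (chr11:83746940-83752646) lie on the plus strand of chromosome 11, 557 kb apart. Cxcr2 (chr1:74153994-74161246), Ly6g (chr15:75155261-75159128) and Retnlg (chr16:48872608-48874498) are on the plus strand, and Cd177 (chr7:24743983-24760334) is on the minus strand. In the GENCODE vM21 annotation, 0 of the 8 genes share exon sequence with another gene, on either strand.

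The promoter windows of the S100a8 and S100a9 pair are shown because these mRNAs are the most abundant of the 8 and differ in their ratio between libraries. Each window runs from 250 bases before to 50 bases after the start of the gene in RefSeq (GRCm38.p6), on the strand of the gene. Capitals mark TATAAA on the gene strand and TTNNGNAA on either strand, the latter a loose form of the site of C/EBP factors, which act in granulocyte development. The S100a8 window is chr3:90668821-90669120 and the S100a9 window is chr3:90695672-90695971.
S100a8: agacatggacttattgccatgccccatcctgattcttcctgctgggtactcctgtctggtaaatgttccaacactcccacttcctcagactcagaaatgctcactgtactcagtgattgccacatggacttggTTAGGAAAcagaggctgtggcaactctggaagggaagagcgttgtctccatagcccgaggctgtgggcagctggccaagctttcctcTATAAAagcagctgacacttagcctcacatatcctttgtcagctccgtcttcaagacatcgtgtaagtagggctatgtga
S100a9: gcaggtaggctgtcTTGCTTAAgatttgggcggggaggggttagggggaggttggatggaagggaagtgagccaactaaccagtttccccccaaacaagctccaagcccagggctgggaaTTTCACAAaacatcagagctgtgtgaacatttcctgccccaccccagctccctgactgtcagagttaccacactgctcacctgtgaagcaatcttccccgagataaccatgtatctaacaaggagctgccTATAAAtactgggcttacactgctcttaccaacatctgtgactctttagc
The TATAAA of S100a8 begins 30 bases before the annotated start, whereas that of S100a9 begins at the annotated start itself.

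The same 6 letters occurred in the windows of Slfn4, Cd177 and Ly6g, and the 60 bases around each are shown to compare the flanks, with TATAAA in capitals. They lie at chr11:83175140-83175199, chr7:24760319-24760378 and chr15:75155135-75155194, respectively.
Slfn4: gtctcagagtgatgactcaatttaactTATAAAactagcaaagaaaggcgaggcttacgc
Cd177: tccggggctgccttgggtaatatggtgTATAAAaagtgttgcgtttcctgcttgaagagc
Ly6g: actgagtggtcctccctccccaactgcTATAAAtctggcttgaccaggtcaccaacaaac
In total, 5 of the 7 genes with a window held TATAAA on the gene strand, against 8.28% of 32544 promoter windows. TTNNGNAA was found on either strand in 6 of 7, against 40.7% of all windows, and GAGGAA, a core of the PU.1 site, in 4 of 7, against 28.1%. These motifs were chosen after the sequences were seen, and a match is a description of letters, not of a bound site. Wfdc21 had no window.

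By mean FPKM, S100a8 was the most abundant of the 8 mRNAs in both groups. Its counts in EAE 1 to EAE 8 were 217, 68, 291, 98, 159, 250, 300 and 259, and in PBS 1 to PBS 8 they were 76, 84, 106, 42, 122, 46, 126 and 125. Levels are compared as FPKM, counts scaled to the length of the transcript and the depth of the library. Those of S100a8 averaged 19.9 ± 8.87 FPKM (SD, n = 8) over EAE libraries and 7.64 ± 2.61 FPKM over PBS libraries. Of the EAE libraries, 6 lay above every PBS library, while EAE 2 at 6.65 FPKM and EAE 4 at 9.63 lay within the PBS range of 3.73 to 10.3. The log2 fold change (log2FC) of EAE over PBS from edgeR was 1.33 (SE 0.28). In bulk libraries of this kind, more cells that carry an mRNA and more of that mRNA per cell cannot be told apart.

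S100a9 encodes the partner of S100A8. Its counts were 230, 171, 227, 88, 149, 303, 300 and 243 in EAE 1 to EAE 8 and 75, 142, 40, 39, 136, 78, 118 and 133 in PBS 1 to PBS 8. Its level was 15.5 ± 5.50 FPKM (SD, n = 8) over EAE libraries and 5.90 ± 2.28 FPKM over PBS libraries, with a log2FC of 1.33 (SE 0.26). Only EAE 4, at 6.47 FPKM, lay under the highest PBS library, PBS 8, at 8.23 FPKM. The ratio of S100a8 to S100a9 in FPKM had a median of 1.38 over EAE and 1.31 over PBS libraries. It was above 1 in 13 of 16 libraries. EAE 2 (0.532) and PBS 3 (3.54) had the lowest and highest ratios. In EAE 2 the S100a8 level was the lowest of its group while S100a9 was at 12.5 FPKM, and in PBS 3 the S100a9 level was 2.81 FPKM while S100a8 was at 9.94.

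Slfn4, whose expression in myeloid cells rises with interferon, had 59, 88, 27, 30, 16, 92, 72 and 74 counts in EAE 1 to EAE 8. In PBS 1 to PBS 8 it had 21, 18, 15, 14, 28, 12, 40 and 26 counts. The FPKM values were 0.545 ± 0.281 (SD, n = 8) and 0.178 ± 0.0627, and the log2FC was 1.55 (SE 0.33). In 5 EAE libraries the level was above every PBS library, and EAE 3, EAE 4 and EAE 5 were within the PBS range of 0.108 to 0.293 FPKM.

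Wfdc21 was close to absent from PBS libraries. It had 5, 8, 9, 0, 10, 7, 13 and 8 counts in EAE 1 to EAE 8, whereas PBS 3 had 2 counts, PBS 7 had 1, and the other 6 PBS libraries had 0. The summed 60 and 3 counts correspond to a ratio of 22.6 per total count, with an exact 95% interval of 7.38 to 113 that covers counting error only. Its fitted log2FC of 4.03 (SE 0.77) depends on the prior count of the fit. EAE 4 apart, all EAE libraries exceeded the highest PBS library.

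Cd177 had 60, 20, 14, 11, 36, 46, 57 and 53 counts in EAE 1 to EAE 8 and 24, 35, 7, 14, 24, 9, 17 and 15 in PBS 1 to PBS 8. Its FPKM values were 0.507 ± 0.272 (SD, n = 8) and 0.217 ± 0.103, with a log2FC of 1.17 (SE 0.36). EAE 1 and EAE 5 to EAE 8 were above every PBS library, and EAE 2, EAE 3 and EAE 4 were within the PBS range of 0.0937 to 0.386 FPKM.

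Cxcr2, the chemokine receptor of circulating neutrophils, was low in all 16 libraries. Its counts were 19, 30, 10, 15, 18, 20, 30 and 20 in EAE 1 to EAE 8, and 11, 13, 14, 13, 26, 7, 11 and 12 in PBS 1 to PBS 8. The groups overlapped, with 2 EAE libraries above every PBS library, FPKM values of 0.243 ± 0.0811 (SD, n = 8) and 0.142 ± 0.0523, and a log2FC of 0.72 (SE 0.29).

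Retnlg had nearly the same median count in both groups, 52.5 in EAE and 53 in PBS libraries. The counts were 39, 32, 47, 51, 54, 116, 91 and 70 in EAE 1 to EAE 8 and 72, 124, 26, 30, 54, 19, 57 and 52 in PBS 1 to PBS 8. Only EAE 6 lay above every PBS library, and PBS 2, at 6.18 FPKM, was above the other 7 EAE libraries. The FPKM values were 3.88 ± 1.76 (SD, n = 8) and 2.92 ± 1.68, with a log2FC of 0.35 (SE 0.32).

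Ly6g, the sorting antigen of mouse neutrophils, was detected in few libraries, with 9, 1 and 6 counts in EAE 1 to EAE 3 and 1, 1 and 4 in PBS 1 to PBS 3. It was at 0 in all 5 EAE and all 5 PBS libraries numbered 4 to 8. A count of 0 in 1 library allows up to 3 counts, or a mean of 0.113 CPM, counts scaled to the depth of the library, in EAE and 0.101 in PBS libraries. The summed 16 and 6 counts correspond to a ratio of 3.02 (exact 95% interval 1.12 to 9.42, counting error only), and the fitted log2FC was 1.39 (SE 1.08).

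**Figure D1:**
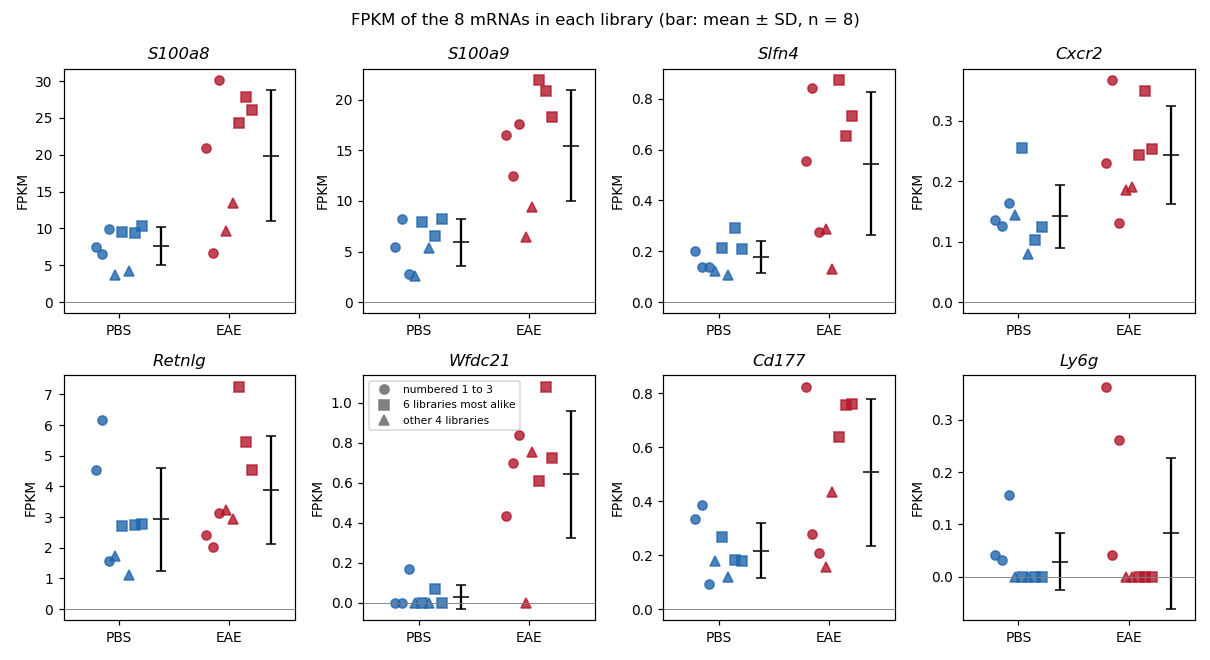
FPKM (vertical axes, linear, 1 scale per panel) of the 8 mRNAs in PBS (blue) and EAE (red) libraries; each point is 1 library, its shape the library set, and black bars are the mean ± SD of 8 libraries. For S100a9, EAE 4 alone among EAE libraries falls below the highest PBS library, and Ly6g is above 0 in the 6 libraries numbered 1 to 3 only.

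DEmRNAs were defined with the thresholds that the methods of the study give for edgeR, a false discovery rate under 0.05 and a |log2FC| over 1, here on Benjamini-Hochberg adjusted p from its quasi-likelihood test. Over all mRNAs, the EAE group had 17 higher DEmRNAs (0.0951%) and 4 lower ones (0.0224%). Of the 8 mRNAs, 4 were among the higher ones, namely S100a8, S100a9, Slfn4 and Wfdc21, a count that the selection itself favours and from which nothing is read. The median log2FC of all 8 was 1.33, against 0.01 over all mRNAs fitted, a gap that the selection favours too. Within the 10 libraries other than EAE 6, EAE 7, EAE 8, PBS 5, PBS 7 and PBS 8, the same thresholds were met by 0 of the 8, with a log2FC of 1.27 for S100a9. Over all mRNAs, 5 higher ones met them there in edgeR, where 1892 had p under 0.05 before adjustment.

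The order of the levels was compared within each group by an exact paired sign-flip permutation test of log2 FPKM between neighbours, two-sided, in the 9 neighbour pairs above 0 in every library of the group. Neighbours and their direction were taken from the mean FPKM of these same libraries. The p values therefore describe how steady a difference was over the libraries, and are no independent test of the order. S100a8 exceeded S100a9 in 7 of 8 EAE libraries (mean log2 difference 0.30 ± 0.52 SD, adjusted p = 0.221, exact permutation test) and in 6 of 8 PBS libraries (0.40 ± 0.67, adjusted p = 0.197, exact permutation test), so that they did not differ beyond their spread. S100a9 was above Retnlg, the third in order, in 8 of 8 libraries of each group, by 2.01 ± 0.60 in EAE and 1.09 ± 0.68 in PBS (adjusted p = 0.0234 for both, the exact permutation test being at the smallest unadjusted p it can give, 0.0078). In PBS libraries Retnlg lay above Cd177 by 3.70 ± 0.35 (adjusted p = 0.0234, exact permutation test). Neighbours among Cd177, Slfn4 and Cxcr2 did not differ beyond their spread in either group, with adjusted p values of 0.0703 to 0.766 over 4 pairs (exact permutation test). By mean FPKM, Wfdc21 followed Retnlg in EAE libraries, at 0.641 ± 0.318 (SD, n = 8), but was above Slfn4, the next, in only 3 of 8. Ly6g had the lowest mean in both groups. In PBS libraries Wfdc21 was above Ly6g in only 2 of 8, with means of 0.0293 and 0.0288 FPKM. S100a8 was, by mean FPKM, above 86.1% of the 21878 mRNAs in EAE mice and 66.8% in PBS mice, and Cxcr2 was above 29.3% and 27.1%, respectively.

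The 6 mRNAs with a median of at least 10 counts were compared library by library, as log2(CPM + 0.5) within each group, and r here describes 8 libraries that share their depth scaling. In EAE libraries, Pearson's r was above 0 for 14 of 15 pairs, with a median of 0.49. It was highest for S100a8 and S100a9 (r = 0.77, Spearman's rho = 0.71), followed by Slfn4 and Cxcr2 (r = 0.73, rho = 0.76), and lowest for S100a8 and Cxcr2 (r = −0.24, rho = −0.17). In PBS libraries, all 15 pairs were above 0, with a median of 0.36, and the highest was Retnlg with Cd177 (r = 0.92, rho = 0.81). S100a8 and S100a9 had r = 0.42 (rho = 0.50) in PBS libraries. Without EAE 2 and EAE 4, the libraries farthest from the median of S100a8, their r in EAE libraries was 0.88, and without PBS 4 and PBS 6 their r in PBS libraries was −0.23, so the value in PBS rests on those libraries. It was 0.79 without PBS 3 and 0.0062 without PBS 4. Retnlg with Cd177 kept an r of 0.86 in PBS without PBS 2 and PBS 6.

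**Figure D2:**
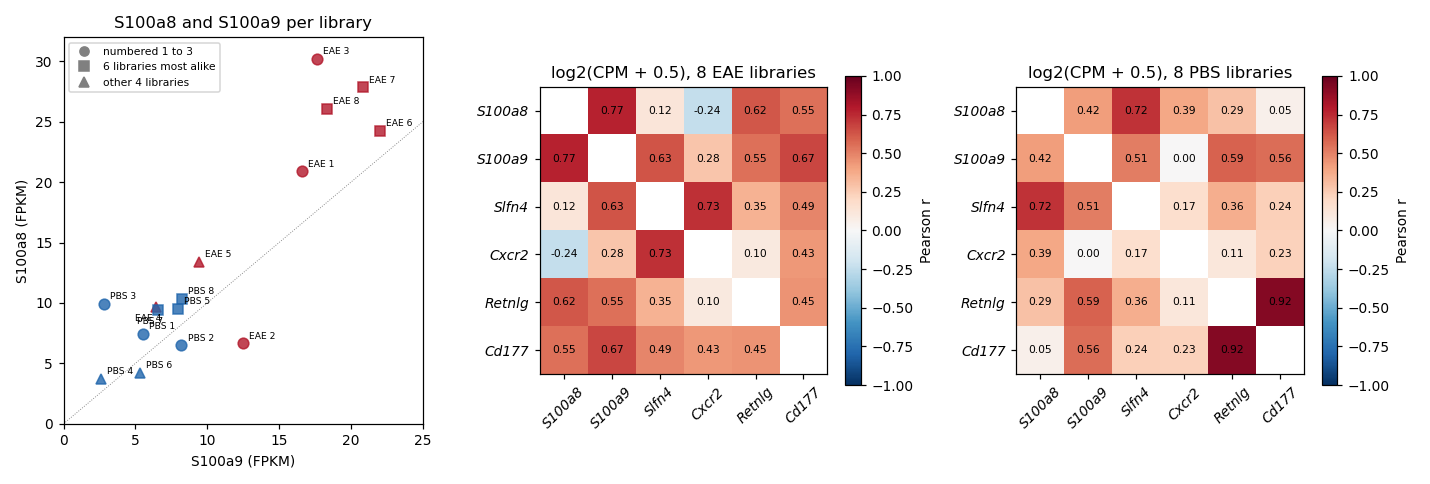
Left, S100a8 against S100a9 in FPKM for each library (red EAE, blue PBS; shapes are library sets; the dotted line marks equal FPKM); centre and right, Pearson r of log2(CPM + 0.5) for each pair of 6 mRNAs over 8 EAE and 8 PBS libraries. EAE 2 lies under the dotted line and PBS 3 far above it, and the highest r is that of Retnlg with Cd177 in PBS libraries, 0.92.

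The mRNAs whose levels moved most like S100a9 across the 16 libraries, after the mean of each group was removed, included none of the 8 mRNAs and none of the neutrophil lists described next. Among 15162 mRNAs with a mean of at least 20 counts, the 10 highest r values were 0.911 to 0.951, and the mRNAs that had them included Dctn1, Camk2b, Eln, Ap1g2 and Uvssa. Dctn1 had 56.3 FPKM in EAE and 57.1 in PBS libraries, so it varied with S100a9 from library to library without a difference between the groups (log2FC −0.07, SE 0.06). Only the group means were removed, so these r values also hold any difference between the sets of libraries, whose part was not tested. S100a8 ranked 1372 (r = 0.623) and Ngp ranked 111 (r = 0.828) in likeness to S100a9. For S100a8, the 10 were Amph, Ctnnd2, Ptges, Iqsec1, Sh2b2, Tmprss6, Os9, Ccl4, Ctif and Rnf157 (r = 0.885 to 0.937), and S100a9 ranked 630. Ccl4, a chemokine of myeloid cells, had 7.27 FPKM in EAE and 3.32 in PBS libraries. Among the listed neutrophil mRNAs with that mean count, r with S100a9 ran from −0.570 for Csf3r, the receptor of the neutrophil growth factor, to 0.828 for Ngp, Csf3r and Hdc being the ones below 0. With S100a8 it ran from −0.607 for Csf3r, the one below 0, to 0.801 for Fpr2, a formyl peptide receptor.

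Neutrophil mRNAs outside the 8 differed by list. The lists were chosen with earlier results of these data known, so their counts are a description and no independent support. For granule proteins, 12 of 12 mRNAs were fitted, 11 had a log2FC above 0 and the median was 1.03. Among them, 3 were DEmRNAs, all higher, against 0.0951% of all mRNAs fitted. Ngp, a cathelicidin-like granule protein, reached 5.12 ± 1.92 FPKM (SD, n = 8) in EAE and 1.68 ± 0.472 in PBS libraries, with a log2FC of 1.56 (edgeR SE 0.24 and adjusted p 0.00304). Ltf, lactoferrin, had a log2FC of 1.87 (edgeR SE 0.35 and adjusted p 0.00898), with 43 to 133 counts in EAE and 0 to 42 in PBS libraries. Ctsg, the serine protease cathepsin G, had 28 counts summed over EAE libraries and 1 over PBS libraries (ratio 31.7, exact 95% interval 5.24 to 1300 for counting error, adjusted p = 0.018 from edgeR). DESeq2 gave Ctsg a log2FC of 4.01 and, for its low counts, no adjusted p. Lcn2, lipocalin 2, was the most abundant of the list at a median of 734.5 counts in EAE and 680 in PBS libraries, with a log2FC of 0.31 (edgeR SE 0.21 and adjusted p 0.478). Within the 10 libraries other than the 6 most alike, 0 of the granule mRNAs were DEmRNAs in edgeR, where 5 had p under 0.05 before adjustment, with log2FC values of 1.40 for Ngp and 2.00 for Ltf.

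For mature neutrophils, 18 of 20 listed mRNAs were fitted. Of these, 15 had a log2FC above 0, the median was 0.22, and 0 had an adjusted p under 0.05 in edgeR or in DESeq2, or an unadjusted p under 0.05 in edgeR. DESeq2 gave no adjusted p for 4 of them, Padi4 included, so its 0 does not cover these. Csf3r had 2.34 ± 0.471 FPKM (SD, n = 8) in EAE and 1.91 ± 0.729 in PBS libraries, with a log2FC of 0.24 (edgeR SE 0.17 and adjusted p 0.506). Lrg1, a secreted glycoprotein of neutrophil granules and other cells, had a log2FC of −0.35 (edgeR SE 0.23 and adjusted p 0.464). The smallest p was that of Padi4, the enzyme that citrullinates histones in neutrophils, with 1 to 13 counts in EAE and 0 to 7 in PBS libraries and a log2FC of 1.27 (edgeR SE 0.62 and adjusted p 0.298). The summed FPKM of the list ranged from 15.3 to 25.7 in EAE and from 10.8 to 19.1 in PBS libraries, while that of the 8 mRNAs ranged from 19.9 to 57.0 and from 8.48 to 21.9. Without the fold change threshold, 0.654% of all mRNAs were higher and 1.76% lower at an adjusted p under 0.05. Before adjustment, 3118 of the 17885 mRNAs fitted had a p under 0.05 in edgeR. Counts of unadjusted p in the lists are to be read beside that number. The share of all mRNAs with a log2FC above 0 is not given here, their median log2FC being 0.01. The difference between the lists was not tested.

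**Figure D3:**
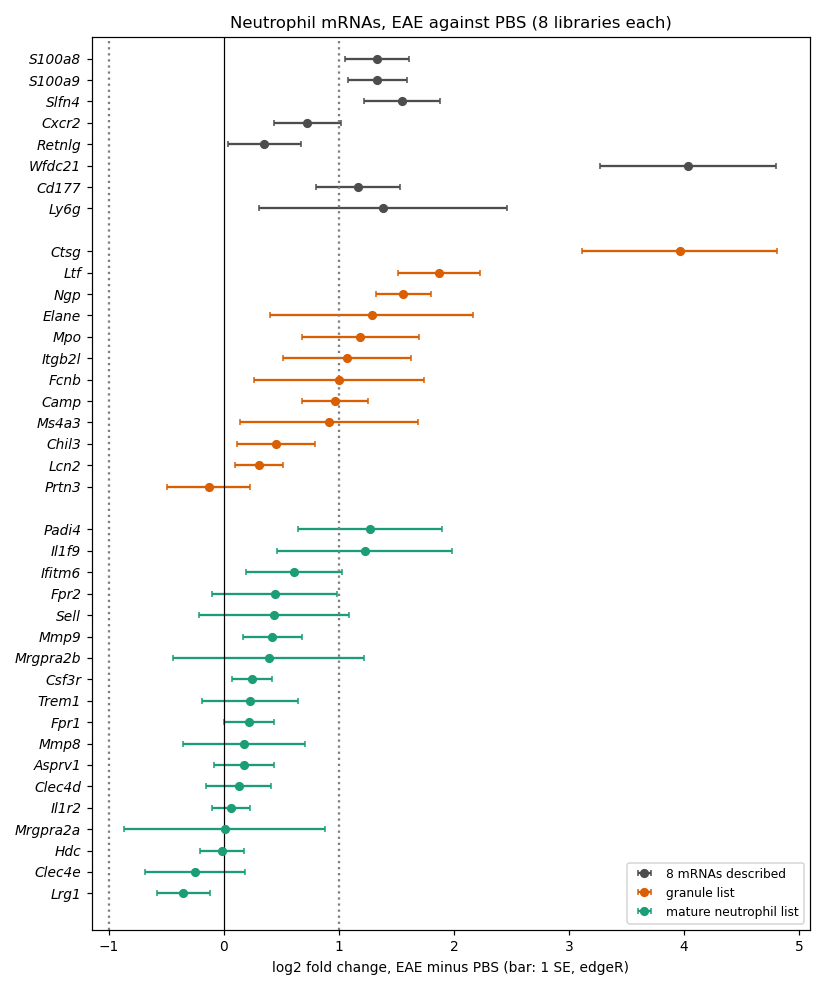
Log2 fold change of EAE over PBS (horizontal axis; points are edgeR estimates, bars 1 SE, 8 libraries per group) for the 8 mRNAs in grey, the granule list in orange and the mature neutrophil list in green; dotted lines mark a log2FC of 1 in each direction. The median is 1.33, 1.03 and 0.22, respectively.

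Of the receptors and adaptors of calprotectin, 7 of 7 were fitted, 0 were DEmRNAs and the median log2FC was 0.04. Bsg, basigin, was lower in EAE libraries at a small size, with 106 FPKM against 126 (log2FC −0.31, edgeR SE 0.06 and adjusted p 0.0169). Cd14, a co-receptor of TLR4, had 11.1 and 8.07 FPKM, with a log2FC of 0.40 (edgeR SE 0.30 and adjusted p 0.524). Tlr4 and Ager, named here because they are the known receptors, had log2FC values of 0.22 (SE 0.16) and 0.50 (SE 0.30), with adjusted p values of 0.534 and 0.413 from edgeR.

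Of the 5 chemokine ligands of CXCR2, 0 had an adjusted p under 0.05 in edgeR's quasi-likelihood test or DESeq2, and 1, Ppbp, had an unadjusted p under 0.05. Ppbp, a platelet chemokine, was listed with 0 to 4 counts in EAE and 1 to 12 in PBS libraries (log2FC −2.17, edgeR SE 0.65 and adjusted p 0.0772). The adjusted p of Ppbp was 0.0128 in edgeR's exact test, and DESeq2 gave it none. Cxcl1 had 0 counts in EAE 1 and EAE 3 and 34 in EAE 2, then 15, 22, 155, 140 and 145 in EAE 4 to EAE 8. In PBS 1 to PBS 8 it had 179, 94, 94, 5, 101, 6, 110 and 88 counts, and its log2FC was −0.27 (edgeR SE 0.70 and adjusted p 0.881). Cxcl2 ranged from 1 to 295 counts in EAE and from 5 to 333 in PBS libraries, with a log2FC of 0.16 (edgeR SE 0.72 and adjusted p 0.939). Both chemokines varied more within the groups than between them.

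Cxcl3, described here because of its pattern, had 0 counts in all 6 libraries numbered 1 to 3. In EAE 4 to EAE 8 it had 38, 26, 210, 211 and 152 counts, and in PBS 4 to PBS 8 it had 1, 138, 1, 117 and 98. It was 1 of 8 mRNAs with counts in all 10 libraries numbered 4 to 8 and 0 in the 6 others. The opposite pattern, counts in all 6 libraries numbered 1 to 3 and 0 in the 10 others, was found for 2 mRNAs, Ly6g and Gm9573. The labels name no batch, and what sets these libraries apart was not tested.

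**Figure D4:**
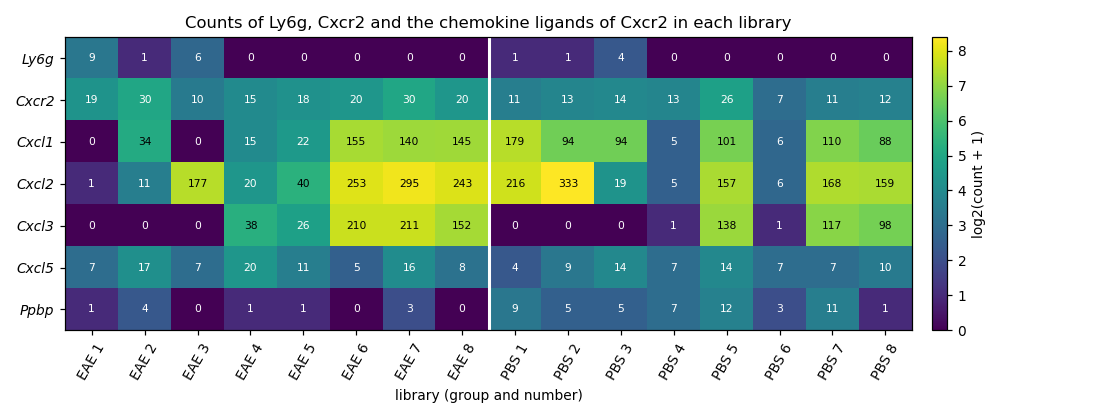
Counts (numbers in the cells; colour is log2 of the count + 1) of Ly6g, Cxcr2 and 5 chemokine ligands of CXCR2 in each library, EAE on the left and PBS on the right of the white line. Cxcl3 is at 0 where Ly6g has counts, in the libraries numbered 1 to 3 of both groups.

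For the surface partners of Cd177, Itgam, which encodes the CD11b used in the sort, was higher in EAE libraries (8.24 and 5.77 FPKM, log2FC 0.46, SE 0.07, adjusted p = 0.0018 from edgeR). Itgb2 had a log2FC of 0.06 (SE 0.07, adjusted p = 0.677) and Pecam1 one of −0.09 (SE 0.15, adjusted p = 0.813, both from edgeR). Of 9 genes of granulopoiesis, 7 were fitted, 2 had an unadjusted p under 0.05 in edgeR and 0 an adjusted one in edgeR or DESeq2. Cebpe, a late granulocyte factor, had 15 counts summed over EAE libraries and 2 over PBS libraries (ratio 8.49, exact 95% interval 1.97 to 76.5 for counting error), with an adjusted p of 0.261 from edgeR and none from DESeq2. Cebpb had 10.1 and 9.49 FPKM, with a log2FC of 0.03 (edgeR SE 0.14 and adjusted p 0.937).

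Relatives of the 8 mRNAs were examined by family. Of 13 other S100 genes, 12 were fitted, the median log2FC was −0.12, and 1 passed the adjusted p, S100a6, at 15.6 and 10.9 FPKM (log2FC 0.47, edgeR SE 0.11 and adjusted p 0.0281). Without EAE 1, EAE 2, EAE 8 or PBS 2, the adjusted p of S100a6 was 0.0538 to 0.0606. The astrocyte gene S100b, the most abundant of the family by mean FPKM over both groups, had a log2FC of −0.26 (edgeR SE 0.10 and adjusted p 0.155, and 0.00743 without EAE 5). Of the other Schlafen genes, 7 were fitted, 6 had a log2FC above 0, and the median was 0.56. In edgeR's quasi-likelihood test, 4 had an unadjusted p under 0.05, as had 3118 of all 17885 mRNAs fitted, and 0 an adjusted one. Slfn9 came nearest, with a log2FC of 0.86 (edgeR SE 0.24 and adjusted p 0.0563). Its adjusted p was 0.0336 to 0.0455 without EAE 3, EAE 4 or EAE 5, 0.016 in DESeq2 and 0.0178 in edgeR's exact test. Slfn2, the most abundant, had a log2FC of 0.67 (edgeR SE 0.26 and adjusted p 0.172). Among the other resistin-like, WAP domain and Ly6 genes, 3, 7 and 12 were fitted, and Lynx1 alone had an adjusted p under 0.05 in edgeR's quasi-likelihood test (log2FC −0.18, edgeR SE 0.04 and adjusted p 0.0293, and 0.0585 to 0.072 without EAE 1, EAE 2, EAE 6, PBS 2 or PBS 3). Ly6h, of the same family, had a log2FC of −0.21 (edgeR SE 0.06 and adjusted p 0.068, 0.0105 without EAE 4 and 0.0273 in DESeq2). Slpi, a protease inhibitor with WAP domains, had a log2FC of 1.34 (edgeR SE 0.55 and adjusted p 0.209). Ly6g and its relatives are close in sequence, as are members of the other families, and how reads shared between them were counted is not given in the sources used here.

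Markers of other cells were read beside these values. The 10 microglia markers summed to 99.4 to 161 FPKM in EAE and 86.0 to 152 in PBS libraries, and all were detected. Although the cells are labelled as microglia, 8 neuron markers summed to 975 to 1280 FPKM in EAE and 1240 to 1410 in PBS libraries, and the astrocyte and oligodendrocyte lists of 6 markers each to 827 to 1240 FPKM over both groups. Of the neuron markers, Gad1 (log2FC −0.53, SE 0.08, adjusted p = 0.00309), Syp (−0.36, SE 0.09, adjusted p = 0.0293) and Syt1 (−0.28, SE 0.07, adjusted p = 0.0326) were lower in EAE libraries, all from edgeR. Gfap, the astrocyte filament gene, was higher (log2FC 0.50, edgeR SE 0.12 and adjusted p 0.0312). The adjusted p of Syp and Syt1 was 0.0526 to 0.0782 without EAE 1, EAE 2, EAE 3, PBS 2, PBS 3, PBS 5 or PBS 7, and that of Gfap 0.0511 to 0.072 without EAE 1, EAE 2, EAE 3, EAE 8, PBS 1, PBS 2, PBS 3 or PBS 6. The 6 erythroid markers summed to 120 to 885 FPKM in EAE and 180 to 544 in PBS libraries. Of the monocyte, erythroid, platelet, T cell, B cell and endothelial markers, 7, 6, 6, 6, 4 and 5 were fitted. Among these, 0 had an adjusted p under 0.05 in edgeR's quasi-likelihood test or DESeq2. DESeq2 gave no adjusted p for 3, 1, 1, 4, 3 and 0 of them, respectively. An unadjusted p under 0.05 in edgeR was found for 2 T cell markers, and Cd8a had an adjusted p of 0.0495 in edgeR's exact test. The part of other cells or of blood in the values of the 8 mRNAs was not tested.

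S100a9 was set against these marker sums from mouse to mouse, in 16 relations adjusted together. In EAE libraries it fell as the microglia markers rose (Pearson's r = −0.811, permutation p = 0.00154, adjusted p = 0.0246; Spearman's rho = −0.905, exact permutation p = 0.00456, adjusted p = 0.073; n = 8). Without the 2 libraries farthest from the median of the microglia sum, r was −0.799. This was the only relation past the threshold, by r, and its adjusted p was 0.0571 to 0.0984 when any of EAE 2 to EAE 7 was left out (exact permutation test). In PBS libraries the same relation had r = −0.393 (exact permutation p = 0.381, n = 8), and the difference between the groups was not tested. With the monocyte sum, r was −0.807 in EAE libraries (exact permutation p = 0.0326, adjusted p = 0.231, n = 8). With the granule sum, r was 0.546 in EAE and 0.751 in PBS libraries (adjusted p = 0.292 and 0.231, exact permutation test), and with the mature neutrophil sum 0.620 and 0.588 (adjusted p = 0.231 for both, exact permutation test). The platelet sum had r values of similar size, 0.606 and 0.754 (adjusted p = 0.259 and 0.231, exact permutation test). With the erythroid sum, r was −0.708 in EAE and 0.117 in PBS libraries (adjusted p = 0.231 and 0.898, exact permutation test). Without the 2 libraries farthest from the median of the erythroid sum, r in EAE libraries was −0.0027. The permutations treated the 8 libraries of a group as exchangeable, without regard to the sets of more alike libraries. No library set holds enough libraries of a group for a value of its own, and the part of the sets in these relations was not tested.

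The sets of libraries seen in these data each held both groups, so the 8 mRNAs could be read within them. The sets are the 6 libraries numbered 1 to 3, the 6 most alike (EAE 6, EAE 7, EAE 8, PBS 5, PBS 7 and PBS 8) and the other 4. The log2 ratio of mean FPKM, EAE over PBS, was 1.27, 1.42 and 1.54 for S100a8 in these sets, 1.5, 1.43 and 1.00 for S100a9, and 1.81, 1.66 and 0.88 for Slfn4. For Cxcr2 it was 0.77, 0.81 and 0.74. These 4 mRNAs were higher in EAE libraries in every set. Cd177 differed more, at 0.68, 1.78 and 0.99. Retnlg had a ratio of −0.70 among libraries numbered 1 to 3, where PBS 1 and PBS 2 were above all 3 EAE libraries, and of 1.07 and 1.12 in the other sets, where the EAE libraries all lay above the PBS libraries. The same held for S100a9 and Slfn4 in each of the 3 sets. It held for S100a8 among the 6 most alike and the other 4. For Wfdc21 it held among libraries numbered 1 to 3 and the 6 most alike. Cd177 separated among the 6 most alike and Cxcr2 among the other 4. With 2 or 3 libraries of each group per set, such separation arises easily by chance. The share of all mRNAs that separate so was not computed, and nothing is read from it.

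**Figure D5:**
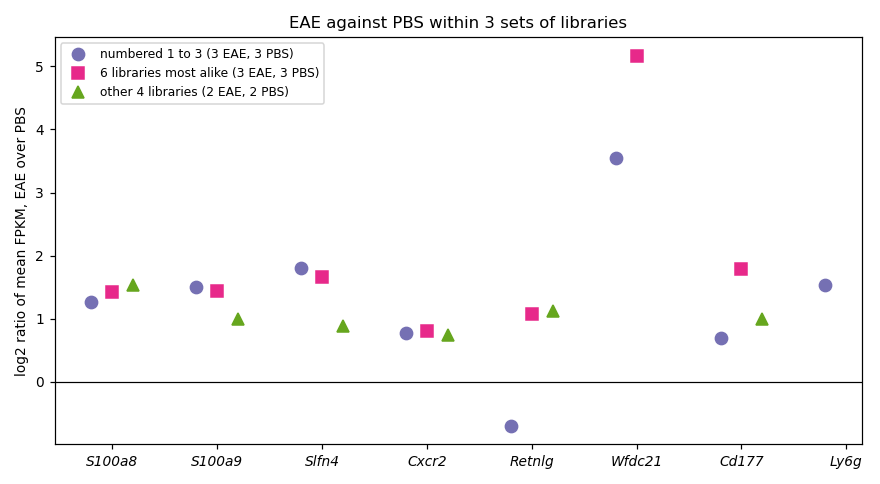
Log2 ratio of mean FPKM, EAE over PBS (vertical axis), of each of the 8 mRNAs within 3 sets of libraries (3 EAE and 3 PBS, 3 and 3, 2 and 2); no point is drawn where a mean is 0. S100a8, S100a9, Slfn4 and Cxcr2 lie above 0 in every set, and Retnlg is at −0.70 in the libraries numbered 1 to 3.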

How the data were processed

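RNA was sequenced from 16 sorted mouse samples, 8 per group, each mouse giving 1 library from a stranded total RNA kit with ribosomal depletion. The authors aligned reads to GRCm38 with HISAT2 2.1.0 and counted them with HTSeq 0.11.2, per the labels, and deposited raw counts per mRNA and FPKM values. Transcripts were annotated with RefSeq. The strand setting, the treatment of reads shared by similar genes and the annotation release are not given in the sources used here. The deposited FPKM equal each count over the total of its library and over a fixed length per mRNA, checked on 7749 mRNAs. Every column was used (0 left out).

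Counts were tested with edgeR 4.0.16 (R 4.3.3), TMM factors and the quasi-likelihood test, over the 17885 mRNAs whose counts summed to 16 or more, with Benjamini-Hochberg adjustment. The SE is the |log2FC| over the square root of F. On simulated counts for this comparison with 200 of 17768 mRNAs changed by a log2FC of 1.5, 97.5% were recovered. The changed mRNAs were drawn from those with a mean of at least 20 counts, and no sets of libraries were simulated. That share therefore does not hold for mRNAs of lower counts, such as Cxcr2, Wfdc21, Ly6g and Ctsg. DESeq2 1.42.0 was an alternative; where its filter on low counts gave no adjusted p, no call was counted as lost. CPM values took a pseudocount of 0.5. Exact tests used scipy 1.17.1, and intervals at 95% cover counting error only. Replicate numbers occur in both groups, but the deviations of same-numbered libraries correlated at −0.25 to 0.60 and over 0.1 in 3 of 8 pairs, so the numbers were not taken as pairs.

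The 8 mRNAs and the gene lists were chosen with earlier results of these data known. Genes named from each list are the DEmRNAs, the mRNA with the smallest p and the 2 with the highest mean FPKM. Tlr4, Ager, Cxcl3, Syt1, Pecam1, Gm9573, and Csf3r, Hdc, Fpr2 and Ngp as relations of S100a8 or S100a9 were named after their values were seen. Proteins were not analysed here.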

Additional observations from a re-analysis of the deposited data

Results flagged for a closer look

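In groups of 8 libraries, 6 values stood farther from the rest of their group than Dixon's limit for the gap as a share of the range, out of 80 groups of 1 mRNA examined, and chance alone flags about 1 in 20 groups. All 6 were in PBS libraries, and most rest on few counts. PBS 3 was apart in 3 of them. Wfdc21 had 0.168 FPKM in PBS 3, against at most 0.0668 in the other PBS libraries. Ly6g had 0.157 FPKM in PBS 3, against at most 0.041. Wfdc17, another WAP domain gene, had 4.47 FPKM in PBS 3, against at most 1.83. Ltf had 0 FPKM in PBS 4 and 0.252 to 0.469 in the other PBS libraries. Cebpe had 0.0489 FPKM in PBS 2, and Ctsg had 0.0307 FPKM in PBS 5, both being listed at 0 in the other PBS libraries.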

How the results depend on the processing

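The settings are DESeq2 and edgeR refits that change 1 choice, those for libraries numbered 1 to 3 and 4 to 8 and for 3 sets being added after the data were seen. The log2FC of S100a8, S100a9, Slfn4, Cxcr2 and Cd177 stayed above 0 in all 30 settings, while that of Retnlg was −0.79 within libraries 1 to 3 and −0.22 within the 10 libraries other than the 6 most alike. Of the 8 mRNAs, 0 met the thresholds within those 10 libraries and 0 within libraries 4 to 8, where 0 mRNAs of any kind did and 1256 had an unadjusted p under 0.05 in edgeR. Within the 6 most alike 6 did, beside 0.603% of all mRNAs called higher there. Those 6 libraries were grouped for their small differences in these data, which itself favours calls. An adjusted p under 0.05 was found for 4147 mRNAs there, against 432 over all 16 libraries. Of the 8, 3 met the thresholds within libraries 1 to 3 (0.345% of all mRNAs called higher) or with filterByExpr (0.082%). With the exact test 5 did (0.246%), and 4 or 5 when 1 library was left out (0.0617% to 0.252%). DESeq2 called 4 (0.129% of all mRNAs called higher), with Cd177 added and no adjusted p for Wfdc21. Over all mRNAs, DEmRNAs higher and lower in EAE were 44 and 8 with the edgeR exact test, 104 and 73 within the 6 most alike, 5 and 1 within the other 10, 59 and 30 within libraries 1 to 3, and 11 to 45 and 1 to 7 with 1 library left out. A term for the 6 most alike gave 34 higher and a term for 3 sets 41, while filterByExpr and a term for libraries 1 to 3 each gave 1 lower. With the replicate number as a block, 15 were higher and 1 lower, the same 4 of the 8 mRNAs were called, and 4 of 16 libraries correlated best with their own number. Neutrophil genes outside the 8 were called higher 6 times within the 6 most alike and 0 times within the other 10 or libraries 4 to 8, with 1 lower within libraries 1 to 3. Partner and family genes gave 1 higher and 2 lower within the 6 most alike and within libraries 1 to 3, 2 higher and 1 lower with the term for 3 sets, 1 lower with the exact test and 0 to 1 lower with 1 library left out. Within the 6 most alike, the Cxcl1 log2FC was 0.84 and the Wfdc1 log2FC was −0.83, opposite to those over all libraries. With log2(FPKM + 0.1), 5 neighbour pairs differed in level, against 3. With 1 library left out, 0 to 2 relations of S100a9 to marker sums passed, and the r of S100a8 with S100a9 was 0.74 to 0.95 in EAE and 0.0062 to 0.79 in PBS libraries. The causes were not tested. Wfdc21, Ctsg and Cebpe had few or no counts in PBS libraries, and their fold changes are imprecise.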
